A study of Mus musculus with 78 samples.

Results

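Amacrine cells sorted by an Igfbp2 transgene were compared with amacrine cells sorted by an Arc transgene, both measured in the third array batch of a survey of adult mouse retina. The samples titled Igfbp2 (3 arrays) and Arc 3rd (3 arrays) were taken from the 78 arrays of the survey by their titles, without use of any measured value, and all probe sets that carry 1 gene symbol (19446 of 22347) were considered. The Igfbp2 cells came from Tg(Igfbp2-EGFP)17Gsat mice and the Arc cells from Tg(Arc-EGFP)194Gsat/Mmcd mice. Earlier sets of the Arc line, titled Arc 1st (batch 1) and Arc 2nd (no batch label), have 3 arrays each and are given beside the main values. For reference to other amacrine lines of batch 3, the Tg(Rgs5-EGFP)24Gsat line (titled Rgs5) and Crh cells, from Tg(Crh-Cre)282Gsat/Mmnc crossed to the reporter Rosa26-LSL-RFP, were also used. The background of all of them was mixed, from C57BL/6J and an FVB/N-Swiss Webster hybrid, and per the labels the hybrid stock can carry a recessive mutation that makes photoreceptors degenerate and the F2 of a backcross to C57BL/6J was used. The age is given as adult only. In each sample 200 fluorescent cells were sorted after a papain dissociation of 15 min, GFP in the Igfbp2, Arc and Rgs5 lines and RFP in Crh. The promoter of the reporter therefore decides which cells were collected, and a sorted set can hold more than 1 type of amacrine cell. Whether the 3 arrays of a set came from separate animals is not stated beyond the title "biological rep". The p-values rest on the spread between arrays of the same set, which need not be a spread between animals. In the main fit this spread was pooled over the sets of all 78 arrays. It is therefore not the spread of the compared arrays alone.

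Amacrine cells are inhibitory interneurons of the inner retina that shape the signal passed between bipolar cells and ganglion cells. Most of them release GABA or glycine, and many types also carry a neuropeptide, by which they have long been told apart. Igfbp2 encodes a secreted protein that binds insulin-like growth factors, and Arc encodes a cytoskeletal protein of synapses that is induced by neuronal activity.

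The Igfbp2 transcript followed the label. It read 1540, 1294 and 1168 intensity units on the Igfbp2 arrays, against 118, 248 and 394 on the Arc 3rd arrays. The groups did not overlap, and the Igfbp2 set had the highest mean of the 26 sets (1325 units), followed by Arc 1st at 742, Arc 2nd at 390 and Arc 3rd at 226. Levels are intensities per probe set on a linear scale, and the differences below are between means of log2 levels of 3 arrays. The difference for Igfbp2 was 2.55 (SE 0.70), and its adjusted p of 0.16 in a limma fit over all 78 arrays missed the 0.05 threshold, which it passed on the log2 scale of value plus 8 (2.50, adjusted p 0.0018) and with array weights (2.44, adjusted p 0.00034). In sorted pools such as these, fewer cells of a type and less RNA per cell cannot be told apart. Within the sets the log2 levels of Igfbp2 had an SD of 0.20 in Igfbp2 cells and 0.88 in Arc 3rd cells. The arrays of the Arc 1st set, at 784, 656 and 796 units, lay between the Igfbp2 and the Arc 3rd arrays.

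Arc itself read 8.37, 11.6 and 7.93 units in Igfbp2 cells, against 18.9, 17.0 and 19.7 units in Arc 3rd cells. All 3 Igfbp2 arrays were below all 3 Arc 3rd arrays, with a difference of -1.01 (SE 0.32, adjusted p 0.40). The 3 Arc sets had the 3 highest means of Arc among the 26 sets, at 28.3 units in Arc 1st, 26.8 units in Arc 2nd and 18.5 units in Arc 3rd. Of the alternatives run, only the mean of all 9 Arc arrays in place of Arc 3rd gave a call for Arc (-1.40, adjusted p 0.00085).

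Genes that neighbour the 2 driver genes are of interest because a transgene made from a large genomic clone can carry them. Of the 5 annotated genes on each side of Igfbp2 and of Arc, 5 were tested and none was called. Igfbp5, next to Igfbp2 and another binding protein of insulin-like growth factors, differed by 0.29 (SE 0.18). Near Arc, Adgrb1 differed by 0.26, Mroh4 by -0.14, Jrk by 0.19 and Them6 by 0.67.

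The amacrine identity given by the labels was checked against defining markers. Slc32a1, the vesicular transporter of GABA and glycine, read 383, 374 and 419 units in Igfbp2 cells, against 441, 416 and 446 units in Arc 3rd cells. Gad1, an enzyme that makes GABA, read 306, 215 and 200 units in Igfbp2 cells, against 254, 354 and 225 units in Arc 3rd cells. For both genes the arrays of the sets overlapped, and Gad1 had its highest means of all 26 sets in Arc 3rd and Igfbp2. The glycine transporter Slc6a9 was low in both, with means of 10.8 units in Igfbp2 cells and 8.40 units in Arc 3rd cells, against 150 units in the Fbxo32 set, where it was highest. Of the 16 amacrine markers tested 0 were called, and their median difference was -0.06, against 0.00 over all genes tested. Over all genes 0.115% were called higher and 0.0896% lower, so a list of this size would mostly hold no call. Pax6, a transcription factor of amacrine and other inner retinal cells, had the lowest difference at -0.36 and Meis2, another transcription factor, the highest at 0.67. The summed level of the 17 markers was 1405 to 1700 units on Igfbp2 arrays and 1720 to 1776 units on Arc 3rd arrays, so all Igfbp2 arrays were lower.

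For markers of the other retinal cell types, sums are given beside the set of the survey with the highest sum for each. Any set but the highest falls below that value, so the sums are a description and no measure of purity. The 15 rod markers summed to 79.7, 91.7 and 236 units (lowest, median and highest) on Igfbp2 arrays and 106, 150 and 185 units on Arc 3rd arrays, while the b2 2nd set had a median of 17551. Gnat1, the rod transducin, read 49.2, 3.06 and 4.06 units in Igfbp2 cells, against 0.048, 2.32 and 0.82 units in Arc 3rd cells, most of them under 3.99 units. That level, where the run of lowest values that stand in identifier order ends on the worst of the 78 arrays, was taken as a common floor. On the compared arrays the runs end at 0.11 to 0.55 units (Igfbp2) and 0.067 to 0.076 units (Arc 3rd). The 16 Müller glia markers summed to 672 to 793 units on Igfbp2 arrays and 818 to 970 units on Arc 3rd arrays. Their highest sum was 3914 in the Csf2rb2 set, which was also the highest set for microglia markers. The 14 microglia markers summed to 112 to 139 units on Igfbp2 arrays and 97.3 to 118 units on Arc 3rd arrays, with 13902 in Csf2rb2. The 14 bipolar markers summed to 131 to 151 units on Igfbp2 arrays and 137 to 296 units on Arc 3rd arrays, with 5550 in mGluR6. The 13 ganglion cell markers summed to 215 to 229 units on Igfbp2 arrays and 176 to 235 units on Arc 3rd arrays, with 4355 in Drd4. The 9 horizontal cell markers summed to 397 to 456 units on Igfbp2 arrays and 325 to 375 units on Arc 3rd arrays, with 4466 in Gja10.

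Lens transcripts set 1 Igfbp2 array apart. The 9 lens and cornea markers tallied 82.6, 135 and 804 units (lowest, median and highest) on the Igfbp2 arrays and 68.0, 73.8 and 81.7 units on the Arc 3rd arrays. Cryba1, a lens crystallin, read 394, 36.5 and 7.03 units in Igfbp2 cells, against 1.67, 1.68 and 3.29 units in Arc 3rd cells. Its difference was at least 3.55 (adjusted p 0.24 as fitted and 0.43 with the floor), and it is given as a bound because the Arc 3rd values lie below the floor of 3.99 units. No gene of any list of markers of other retinal or ocular cell types was called, and the part of such cells in the results below was not tested.

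**Figure D1:**
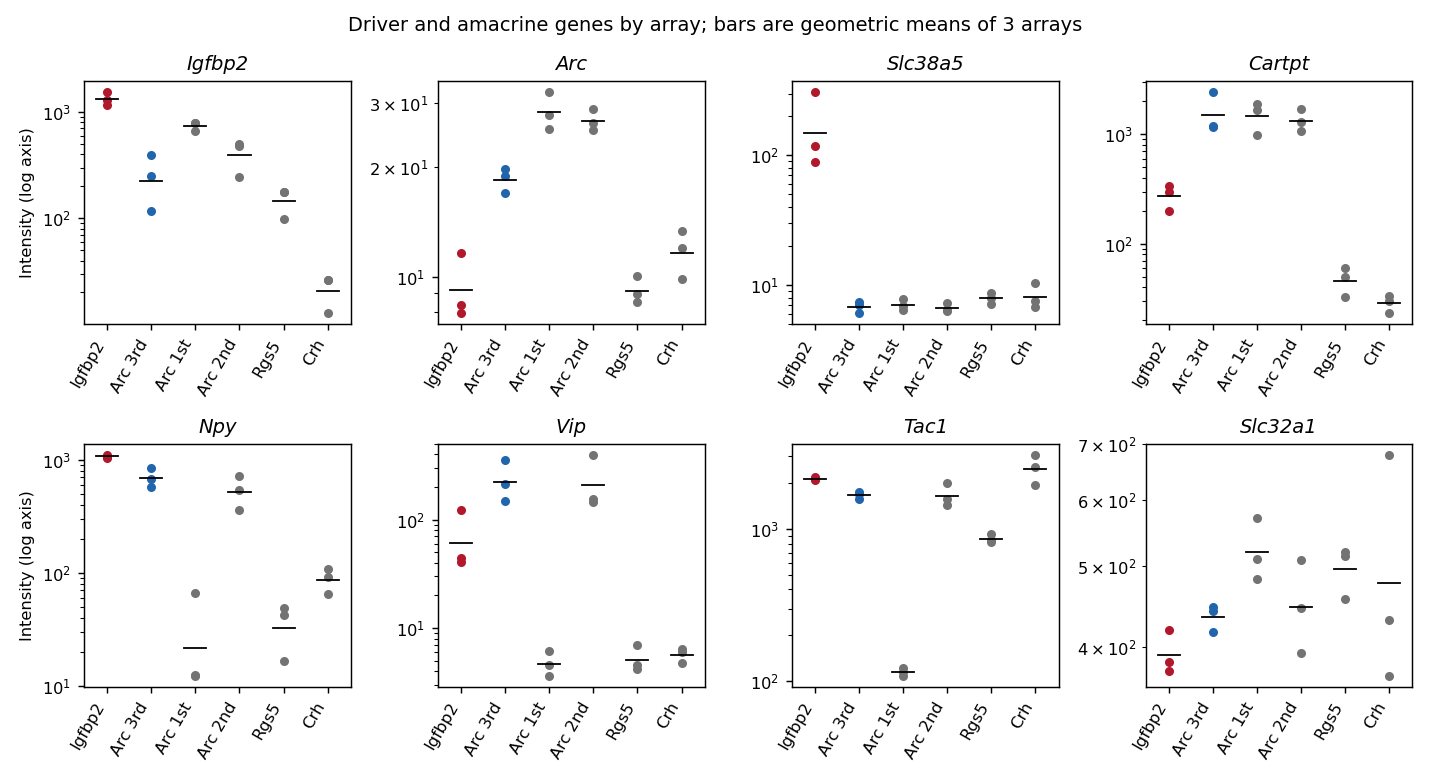
Intensity per array (log axis) of 8 genes in 6 sets of 3 arrays; each point is an array and each bar the geometric mean. Igfbp2 is highest in Igfbp2 cells, Slc38a5 stands out in Igfbp2 cells alone among these sets, and Npy, Vip and Tac1 are far lower in Arc 1st than in Arc 2nd and Arc 3rd.

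Pearson's r between an Igfbp2 and an Arc 3rd array ran from 0.934 to 0.955 over the probe sets tested, against 0.951 to 0.964 among Igfbp2 arrays and 0.946 to 0.956 among Arc 3rd arrays. These values describe the arrays, and genes are not independent replicates. Of 15736 probe sets tested, 18 (0.114%) were called higher in Igfbp2 cells and 14 (0.089%) were called lower, where a call needs a size of 1 or more on the log2 scale and an adjusted p under 0.05. An unadjusted p below 0.05 was reached by 490 probe sets. By the plain order of the arrays, all 3 Igfbp2 values lay above all 3 Arc 3rd values in 7.33% of the probe sets and below them in 6.82%. All 18 higher genes lay above each of the 9 Arc arrays, a pattern found in 1.93% of all probe sets. Of the 14 lower genes 8 lay below each of the 9, a pattern found in 1.52%. The 9 include the 3 Arc 3rd arrays by which the genes were called, so these counts describe the calls and do not test them. Leaving out each of the 6 arrays in turn gave 19 to 31 calls (19 without Arc 3rd replicate 1, 20 without Igfbp2 replicate 2 and 21 without Arc 3rd replicate 2), and 10 genes were called in all 6 of these fits: Slc38a5, Popdc3, Slc9b2, Cpne9 and Fezf2 among the higher and Pantr1, Lamp5, Iyd, Nr4a2 and Ptprm among the lower. The other 22 lost the call in 1 to 5 of the 6 fits. A fit on the 6 arrays alone called 30 genes, of which 16 were among the 32. It did not call Iyd, Nr4a2 and Ptprm of the 10 genes just named, nor Vip. In simulated data of the same size the fit recovered 64% of genes changed by 1.5 on the log2 scale and 98% of those changed by 3, with 2 false calls. The simulated noise was normal, with the same SD in all sets for a gene, as the fit assumes. The real sets differ in spread, so these shares need not hold for them.

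**Figure D2:**
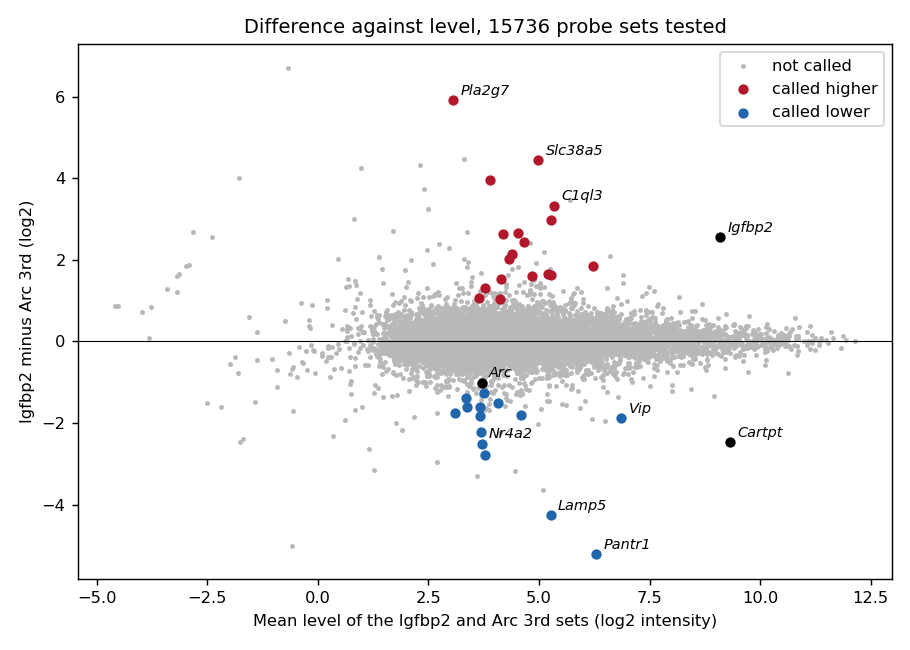
Difference between Igfbp2 and Arc 3rd (log2, vertical) against the mean level of both sets (log2 intensity, horizontal) for the 15736 probe sets tested, with called genes in red (higher) and blue (lower) and Igfbp2, Cartpt and Arc in black. The 18 higher and 14 lower genes lie outside the main cloud, Igfbp2 at 2.55 and Cartpt at -2.47 are among the brighter genes, and Pla2g7 is drawn at its fitted value, of which only a lower bound is given in the text.

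Slc38a5 had the lowest adjusted p of all genes tested. This gene encodes a membrane transporter that exchanges glutamine and related amino acids with sodium and protons. It read 308, 88.8 and 118 units in Igfbp2 cells, against 6.04, 7.35 and 7.06 units in Arc 3rd cells. The lowest Igfbp2 array was an order of magnitude above the highest Arc 3rd array, and the difference was 4.44 (SE 0.23, adjusted p 1.3e-22). This SE draws on all 26 sets, while the log2 levels had an SD of 0.94 in Igfbp2 cells and 0.15 in Arc 3rd cells. The Arc 1st arrays read 6.46 to 7.84 units and the Arc 2nd arrays 6.27 to 7.31 units, so the Arc line gave the same low reading in all 3 sets. Against the Rgs5 cells, at 7.10 to 8.62 units, the difference was 4.23. No other set of the survey had a mean above 9.39 units, the level of the unnumbered b2 set, and the median of the 26 sets was 7.68. The call for Slc38a5 was kept in each of the 6 fits that left out an array, with the highest adjusted p without Arc 3rd replicate 1 (4.36, adjusted p 1.6e-19). Among the 29 amino acid transporters tested it was the only one called (3.45%, against 0.115% called higher over all genes). The list's median difference was 0.10.

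C1ql3, Efemp1, Pla2g7 and Rln1 rose in Igfbp2 cells. C1ql3, a secreted C1q-like protein that organizes synapses, read 102, 152 and 134 units in Igfbp2 cells, against 7.75, 13.9 and 19.4 units in Arc 3rd cells. Its difference of 3.32 (SE 0.63, adjusted p 0.0025) lost the call without Arc 3rd replicate 1 (2.96, adjusted p 0.071), and its highest mean after Igfbp2 was in b2 2nd, at 80.7 units. Efemp1, the extracellular matrix protein fibulin-3, read 132, 73.1 and 132 units in Igfbp2 cells, against 10.7, 15.0 and 16.6 units in Arc 3rd cells. It differed by 2.97 (SE 0.61, adjusted p 0.0069), lost the call in 3 of the 6 fits that left out an array (adjusted p up to 0.098, without Arc 3rd replicate 1), and was again highest in the Igfbp2 set. The Arc 1st arrays read only 4.47 to 6.08 units for Efemp1.

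Pla2g7, a secreted enzyme that inactivates platelet-activating factor, read 97.6, 68.4 and 40.2 units in Igfbp2 cells, against 1.10, 1.86 and 0.602 units in Arc 3rd cells. Since the Arc 3rd values lie under 3.99 units, the difference is given as at least 4.01 (adjusted p 0.0072 as fitted), and 4 of the 6 fits without an array lost the call (adjusted p up to 0.080, without Arc 3rd replicate 3). Pla2g7 was no mark of the Igfbp2 set: 9 sets had higher means, with Gja10 cells at 496 units. Rln1, a peptide hormone of the relaxin family, read 37.9, 68.1 and 33.0 units in Igfbp2 cells, against 9.53, 10.9 and 9.48 units in Arc 3rd cells. It differed by 2.15 (SE 0.48, adjusted p 0.021), and its call was kept in 1 of the 6 fits without an array (adjusted p up to 0.34, without Igfbp2 replicate 2).

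Ramp3, which escorts calcitonin-family receptors to the cell surface and sets their ligand preference, read 66.8, 42.8 and 69.8 units in Igfbp2 cells, against 2.25, 1.39 and 17.2 units in Arc 3rd cells. The difference was at least 3.17 (adjusted p 0.0089 as fitted), was lost in 4 of the 6 fits without an array (adjusted p up to 0.28, without Arc 3rd replicate 2), and the Rgs5 arrays read 23.6 to 68.2 units. Calcrl, the receptor that Ramp3 partners, read 4.36 to 4.57 units on Igfbp2 arrays and 3.83 to 4.38 units on Arc 3rd arrays and was too dim in all sets to be tested. Popdc3, a member of the Popeye family of cAMP-binding membrane proteins, read 46.6, 49.7 and 39.8 units in Igfbp2 cells, against 4.98, 6.05 and 13.1 units in Arc 3rd cells. The groups were well apart (2.62, SE 0.45, adjusted p 0.00049), with Drd4 the nearest other set at 37.2 units. Slc9b2, a sodium and proton exchanger, read 60.5, 47.2 and 71.5 units in Igfbp2 cells, against 9.44, 10.02 and 13.9 units in Arc 3rd cells. Its difference was 2.43 (SE 0.40, adjusted p 0.00034), and the Opn4 set, at 55.9 units, was close to the Igfbp2 set at 58.9. Ctxn2, which encodes a small membrane protein, read 51.4, 89.1 and 43.5 units in Igfbp2 cells, against 6.74, 11.6 and 10.03 units in Arc 3rd cells. It differed by 2.66 (SE 0.53, adjusted p 0.0047), lost the call without Igfbp2 replicate 2 (adjusted p 0.10) and without Arc 3rd replicate 1, and was highest in the Crh cells, at 233 units.

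A pair of copines, proteins that bind membranes when calcium is high, rose together. Cpne9 read 32.0, 51.4 and 40.0 units in Igfbp2 cells, against 10.3, 10.01 and 9.69 units in Arc 3rd cells (2.02, SE 0.36, adjusted p 0.0012). Cpne5 read 71.6, 58.8 and 65.9 units in Igfbp2 cells, against 20.3, 19.2 and 23.2 units in Arc 3rd cells (1.65, SE 0.35, adjusted p 0.012). The arrays of both genes were tight within each set, but Cpne5 lost the call in 4 of the 6 fits without an array (adjusted p up to 0.097, without Arc 3rd replicate 2). Both genes were as high or higher elsewhere, Cpne9 in Drd4 cells (100 units) and Cpne5 in Crh cells (67.5 units). Khdrbs3, an RNA-binding regulator of splicing, read 114, 175 and 140 units in Igfbp2 cells, against 29.7, 42.4 and 47.5 units in Arc 3rd cells. The change of 1.85 (SE 0.40, adjusted p 0.015) set the Igfbp2 cells near the median of the 26 sets, 116 units, with Arc 3rd below it, and 4 of the 6 fits without an array lost it (adjusted p up to 0.26, without Arc 3rd replicate 1).

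Fezf2 was the 1 retinal transcription factor that rose, and Nr4a2, described below, the 1 that fell, of 107 tested (median difference -0.07). That is 0.935% in each direction, against 0.115% higher and 0.0896% lower over all genes. A single call describes the gene and not its list. Fezf2, a zinc-finger repressor known for specifying deep-layer projection neurons of the cortex, read 34.6, 25.01 and 30.8 units in Igfbp2 cells, against 9.70, 9.19 and 12.3 units in Arc 3rd cells. It differed by 1.53 (SE 0.28, adjusted p 0.0012), kept the call in all 6 fits without an array, and no other set had a mean above 13.2 units, in Arc 2nd. Stxbp6, which binds SNARE proteins of vesicle fusion, read 57.5, 93.3 and 57.6 units in Igfbp2 cells, against 17.0, 21.6 and 28.6 units in Arc 3rd cells (1.63, SE 0.37, adjusted p 0.024). Hspb8, a small heat shock protein, read 40.4, 50.4 and 61.6 units in Igfbp2 cells, against 25.7, 7.56 and 22.6 units in Arc 3rd cells (1.61, SE 0.37, adjusted p 0.027). For these last the calls rest on few arrays: Stxbp6 kept it in 1 of the 6 fits without an array (adjusted p up to 0.35, without Igfbp2 replicate 2), and Hspb8 in 3 (up to 0.96, without Arc 3rd replicate 2). Hspb8 was the only called gene of 24 heat shock and stress genes (4.17%, against 0.115% called higher over all genes). The median difference of that list was 0.12.

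The remaining higher genes had the smallest called differences and are named after their values were seen, to complete the list. Mrap2, an accessory protein of melanocortin receptors, differed by 1.30 (26.1, 23.0 and 16.8 units in Igfbp2 cells, against 12.2, 7.57 and 7.26 units in Arc 3rd cells). Epor, the erythropoietin receptor, differed by 1.07, with 17.8, 17.5 and 18.6 units in Igfbp2 cells, against 9.53, 9.24 and 7.20 units in Arc 3rd cells. Ptpro, a receptor-type tyrosine phosphatase, differed by 1.03, with 22.9, 27.0 and 24.7 units in Igfbp2 cells, against 11.6, 13.2 and 11.8 units in Arc 3rd cells. All 3 were highest in the Igfbp2 set of the 26, and of the 6 fits without an array the call was lost in 4 for Mrap2 (adjusted p up to 0.091), in 2 for Epor (up to 0.11) and in 5 for Ptpro (up to 0.17). In all, 11 of the 18 higher genes had their highest mean of the 26 sets in Igfbp2 cells, a set that was highest for 184 of the 15736 probe sets tested. The 18 were chosen for high values in these same arrays, so that count is a description only.

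**Figure D3:**
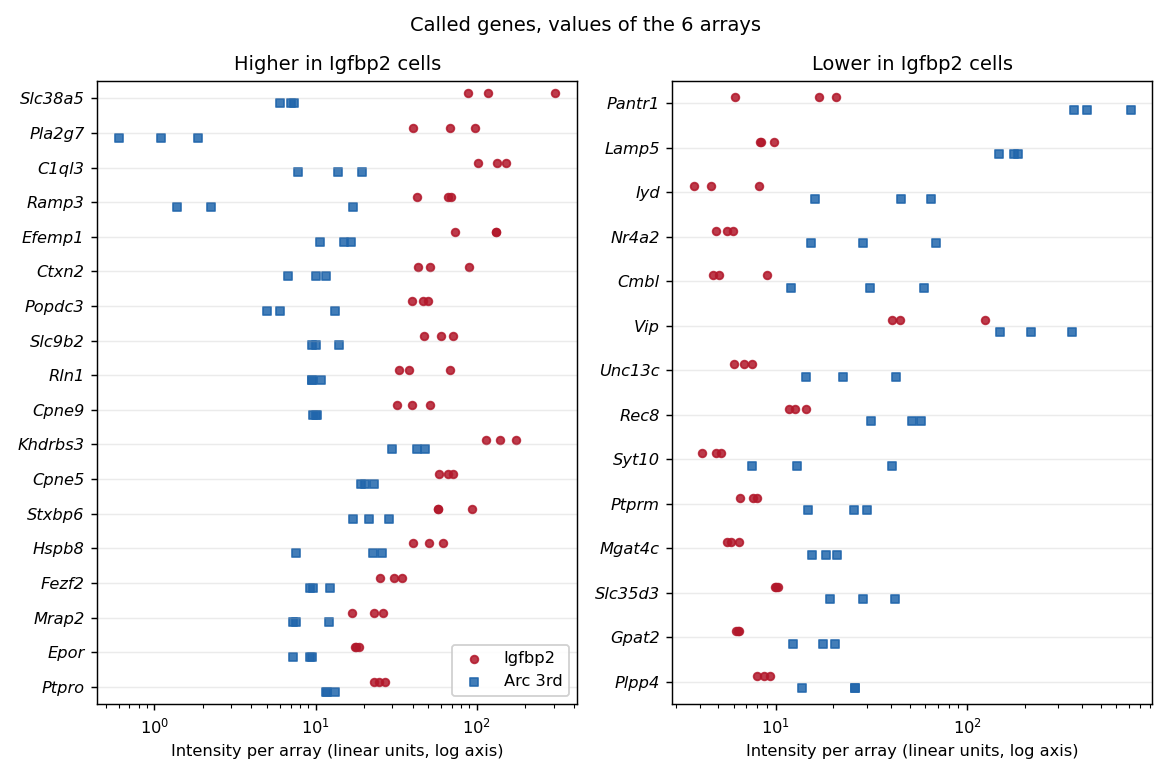
Intensity on each array (log axis, linear units) of the 18 higher genes on the left and the 14 lower genes on the right, with Igfbp2 arrays as red circles drawn above the blue squares of Arc 3rd arrays. In no gene do the 3 Igfbp2 arrays overlap the 3 Arc 3rd arrays. Pantr1 and Slc38a5 (88.8 to 308 against 6.04 to 7.35 units) have the largest differences of mean log2 levels among genes that kept their call without any single array.

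Pantr1 and Lamp5 fell the most in Igfbp2 cells. Pantr1, a long noncoding RNA, read 6.08, 16.8 and 20.6 units in Igfbp2 cells, against 716, 424 and 362 units in Arc 3rd cells. The difference was -5.22 (SE 0.52, adjusted p 3.4e-10), the largest of the comparison in size among called genes other than Pla2g7, and it stayed at an adjusted p of 2.5e-07 or lower without any 1 array. High levels were a property of few sets: Rgs5 at 761 units, Arc 3rd at 479, Arc 2nd at 434 and Arc 1st at 236, with Grik4 next at 34.0 and a median of 6.05. Pou3f3, a POU-domain transcription factor that lies beside Pantr1 in the RefSeq annotation and was looked up after Pantr1 was seen, read 8.21, 9.15 and 9.02 units in Igfbp2 cells, against 11.1, 8.77 and 12.4 units in Arc 3rd cells, and was not called (-0.28, SE 0.28). Lamp5, a neuronal protein related to lysosomal membrane proteins, read 8.27, 9.72 and 8.36 units in Igfbp2 cells, against 147, 175 and 184 units in Arc 3rd cells. It differed by -4.26 (SE 0.52, adjusted p 1.4e-07), with Arc 1st at 37.2 to 56.9 units and Arc 2nd at 107 to 128, and its highest means were in Fbxo32 (748 units) and Fam81a cells (530 units).

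Among neuropeptide genes the test called Vip alone, of 38 (2.63%, against 0.0896% called lower over all genes). The median difference of the list was -0.05. Vip encodes vasoactive intestinal peptide, a known marker of a group of amacrine cells. It read 40.5, 44.3 and 123 units in Igfbp2 cells, against 215, 352 and 148 units in Arc 3rd cells (-1.89, SE 0.36, adjusted p 0.0024). The highest Igfbp2 array came close to the lowest Arc 3rd array, and the call was lost without Igfbp2 replicate 1, without Igfbp2 replicate 2 and without Arc 3rd replicate 2 (adjusted p up to 0.097). Vip depended on which Arc set was used. The Arc 2nd arrays read 397, 145 and 157 units and the Arc 1st arrays 4.55, 6.17 and 3.62, so that Igfbp2 minus Arc 2nd was -1.78 (adjusted p 0.0041) and Igfbp2 minus Arc 1st was 3.70 (adjusted p 8.5e-11). Outside these lines the highest mean was 11.9 units, in Grik4 cells.

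Cartpt, the precursor of the CART peptide, showed a difference of the same order but was not called. It read 200, 300.1 and 338 units in Igfbp2 cells, against 2437, 1193 and 1178 units in Arc 3rd cells. The groups were well apart (-2.47, SE 0.78), yet the adjusted p was 0.41, and it was 0.031 when only the 6 arrays compared entered the fit. Cartpt was also called as log2 of value plus 8 and with array weights. Its lowest adjusted p over the 21 alternatives was 0.0036. The Arc 1st arrays read 992 to 1884 units and the Arc 2nd arrays 1073 to 1702, so all 9 Arc arrays exceeded the 3 Igfbp2 arrays. The Rgs5 arrays read 32.6 to 60.0 units, below the Igfbp2 cells.

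Other peptide genes were high in both sets. Npy, encoding neuropeptide Y, read 1108, 1065 and 1039 units in Igfbp2 cells, against 852, 682 and 576 units in Arc 3rd cells (0.62, SE 0.80), and Tac1, encoding substance P, read 2103, 2127 and 2178 units in Igfbp2 cells, against 1742, 1692 and 1565 units in Arc 3rd cells (0.36, SE 1.41). Both were above all 9 Arc arrays and neither was called. Both differences were below the 1 log2 unit that a call needs. In the limma fit their unadjusted p was 0.44 (Npy) and 0.80 (Tac1), so both also missed the threshold of p. Their SEs draw on all 26 sets and are larger than the spread in the compared arrays. The SDs of the log2 levels were 0.047 (Npy) and 0.026 (Tac1) in Igfbp2 cells, and 0.28 and 0.080 in Arc 3rd cells. Arc 1st was again apart, with 12.3 to 66.4 units of Npy and 108 to 121 units of Tac1. Tac2, which encodes neurokinin B, had the highest difference of the list at 2.10 (SE 0.70, adjusted p 0.54): 133, 303 and 198 units in Igfbp2 cells, against 236, 16.7 and 26.0 units in Arc 3rd cells, where replicate 1 lay within the Igfbp2 range. Of the 21 neuropeptide receptor genes tested 0 were called. Sstr2, a somatostatin receptor, was at the low end with 209, 240 and 248 units in Igfbp2 cells, against 943, 403 and 373 units in Arc 3rd cells (-1.17, SE 0.63). Hcrtr1, an orexin receptor, was at the high end (0.52). The neuropeptide Y receptors, looked up after Npy was seen, were below the Arc 3rd arrays on all Igfbp2 arrays: Npy5r averaged 7.71 units in Igfbp2 cells and 15.7 in Arc 3rd cells (-1.03, adjusted p 0.12), and Npy1r differed by -1.13 (adjusted p 0.26).

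Nr4a2 fell, and other activity-induced genes were not called. Nr4a2, an orphan nuclear receptor induced early by neuronal activity, read 4.88, 5.54 and 5.99 units in Igfbp2 cells, against 69.1, 28.5 and 15.3 units in Arc 3rd cells. It differed by -2.51 (SE 0.37, adjusted p 2.7e-05), stayed called without any 1 array (adjusted p up to 0.0086), and had its highest mean of the 26 sets in Arc 3rd (31.1 units). Nr4a2 was not called in the fit on the 6 arrays alone, nor against Arc 2nd (-1.26, adjusted p 0.18). It was the only one called of 41 immediate early genes (2.44%, against 0.0896% called lower over all genes). The median difference of that list was -0.06. Of the best known members, named outside the rule, Fos differed by 0.45, Egr1 by 0.39 and Jun by -0.85, with adjusted p of 1, 1 and 0.88. Gadd45a, a growth arrest gene of the stress list, had 10.1, 4.46 and 20.1 units in Igfbp2 cells, against 141, 104 and 120 units in Arc 3rd cells, and was not called (-3.64, SE 1.58), although it was in the fit on the 6 compared arrays alone (adjusted p 0.035).

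Of 46 vesicle fusion and release genes tested, Stxbp6 rose (2.17%), Unc13c and Syt10 fell (4.35%) and 43 were not called, against 0.115% higher and 0.0896% lower over all genes. The median difference of the list was -0.01. Unc13c, a priming factor for synaptic vesicles, read 7.45, 6.82 and 6.05 units in Igfbp2 cells, against 14.3, 42.5 and 22.4 units in Arc 3rd cells (-1.82, SE 0.34, adjusted p 0.0018). Syt10, a synaptotagmin that acts as a calcium sensor for vesicle release, read 4.12, 5.15 and 4.86 units in Igfbp2 cells, against 40.6, 12.9 and 7.47 units in Arc 3rd cells (-1.75, SE 0.33, adjusted p 0.0024). Both were below all 9 Arc arrays. Arc 3rd replicate 1 carried much of the Syt10 value, which was -1.06 without it (adjusted p 0.37), and Unc13c lost its call without Arc 3rd replicate 2 (-1.41, adjusted p 0.11).

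Iyd, which recovers iodine from iodotyrosines, read 3.74, 4.55 and 8.14 units in Igfbp2 cells, against 64.7, 44.8 and 16.02 units in Arc 3rd cells (-2.80, SE 0.37, adjusted p 1.3e-06). The Arc 3rd mean of 35.9 units was the highest of the survey and above Arc 2nd at 14.7, and Arc 3rd was itself higher than the mean of the earlier Arc sets (1.66, adjusted p 0.0062). Cmbl, a hydrolase, read 9.02, 5.06 and 4.70 units in Igfbp2 cells, against 59.6, 31.0 and 12.05 units in Arc 3rd cells (-2.23, SE 0.46, adjusted p 0.0069). Its call was lost in 4 of the 6 fits without an array (adjusted p up to 0.37, without Arc 3rd replicate 1), though Arc 1st and Arc 2nd arrays read 15.4 to 47.2 units. Rec8, a cohesin subunit known from meiosis, read 12.6, 14.4 and 11.7 units in Igfbp2 cells, against 31.5, 51.2 and 57.7 units in Arc 3rd cells (-1.81, SE 0.41, adjusted p 0.025), with the call kept in 1 of the 6 fits without an array (adjusted p up to 0.21, without Arc 3rd replicate 3).

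Ptprm, a receptor phosphatase that mediates cell adhesion, read 7.56, 6.47 and 7.93 units in Igfbp2 cells, against 30.1, 25.6 and 14.7 units in Arc 3rd cells (-1.62, SE 0.25, adjusted p 6.6e-05). The earlier Arc arrays read 9.48 to 13.7 units, between both sets. Mgat4c, a glycosyltransferase, read 6.42, 5.83 and 5.52 units in Igfbp2 cells, against 18.3, 20.9 and 15.4 units in Arc 3rd cells (-1.61, SE 0.32, adjusted p 0.0048). Slc35d3, of the nucleotide sugar transporter family, read 9.85, 10.3 and 9.99 units in Igfbp2 cells, against 42.0, 19.3 and 28.6 units in Arc 3rd cells (-1.51, SE 0.29, adjusted p 0.0039). Mgat4c lost its call without Arc 3rd replicate 2 (adjusted p 0.061) and Slc35d3 without Arc 3rd replicate 1 (adjusted p 0.16). Gpat2, an acyltransferase of glycerolipid synthesis, and Plpp4, a phospholipid phosphatase, complete the list and were named after their values were seen. Gpat2 read 6.40, 6.20 and 6.36 units in Igfbp2 cells, against 20.5, 17.6 and 12.3 units in Arc 3rd cells (-1.38), and Plpp4 read 8.002, 9.34 and 8.69 units in Igfbp2 cells, against 13.7, 26.0 and 25.8 units in Arc 3rd cells (-1.27). Gpat2 lost the call in 2 of the 6 fits without an array (adjusted p up to 0.12), and Plpp4 in 5 of the 6 (up to 0.33).

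Upstream sequence is shown for genes that carry the comparison: Slc38a5, the strongest higher gene, with Nr4a2 and Vip, which fell, and Cartpt, which was not called, all 3 known for transcription that responds to cAMP. The sequences are RefSeq promoters of build GRCm38.p6, 250 bases before to 50 after the annotated start, written 5′ to 3′ on the gene's strand, with each TGACG (the core of the cAMP response element) on either strand in capitals.
Slc38a5, chrX:8271131-8271430, plus strand: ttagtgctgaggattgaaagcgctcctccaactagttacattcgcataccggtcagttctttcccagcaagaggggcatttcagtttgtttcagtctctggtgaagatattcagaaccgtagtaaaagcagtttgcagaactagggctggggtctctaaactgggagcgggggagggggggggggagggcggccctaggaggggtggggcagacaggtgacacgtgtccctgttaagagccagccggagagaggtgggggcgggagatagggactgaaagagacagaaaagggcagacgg
Nr4a2, chr2:57123954-57124253, minus strand: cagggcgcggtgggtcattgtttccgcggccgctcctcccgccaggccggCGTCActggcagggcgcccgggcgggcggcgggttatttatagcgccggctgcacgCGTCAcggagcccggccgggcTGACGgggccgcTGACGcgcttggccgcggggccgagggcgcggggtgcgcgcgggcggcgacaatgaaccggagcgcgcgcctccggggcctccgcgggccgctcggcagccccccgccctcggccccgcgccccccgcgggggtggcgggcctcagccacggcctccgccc
Vip, chr10:5638968-5639267, plus strand: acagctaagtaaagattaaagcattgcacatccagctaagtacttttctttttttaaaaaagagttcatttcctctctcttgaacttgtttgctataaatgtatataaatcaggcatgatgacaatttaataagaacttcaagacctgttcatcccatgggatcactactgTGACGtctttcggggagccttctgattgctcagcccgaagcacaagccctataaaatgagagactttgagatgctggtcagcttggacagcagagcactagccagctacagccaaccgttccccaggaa
Cartpt, chr13:99900634-99900933, minus strand: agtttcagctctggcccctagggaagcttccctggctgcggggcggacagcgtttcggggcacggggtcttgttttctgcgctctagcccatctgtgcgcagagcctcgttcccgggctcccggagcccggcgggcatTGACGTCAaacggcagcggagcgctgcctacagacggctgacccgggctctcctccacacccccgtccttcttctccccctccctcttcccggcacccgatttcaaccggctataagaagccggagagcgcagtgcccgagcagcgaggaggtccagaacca
The core occurred at 4 places in the Nr4a2 window, at 1 in the Vip window and at none in the Slc38a5 window, while in Cartpt both strands of the core overlap as the full palindrome TGACGTCA. Promoters were available for 16 of the 18 higher genes (16 windows) and 13 of the 14 lower genes (17 windows). TGACG, searched on both strands, was in 0 of the 16 windows of higher genes and in 7 of the 17 windows of lower genes (41.2%), those of Iyd, Nr4a2, Plpp4, Ptprm, Slc35d3, Syt10 and Vip. Of all 32851 promoters in the table, 6837 (20.8%) held it. The full TGACGTCA was in none of the 33 windows of called genes and in 1.79% of all promoters, AAAGGTCA (the site of Nr4a-family receptors) in none and in 1.51%. TATAAA was in 1 of the higher and 4 of the lower windows, against 13.6% of all promoters, and CAGCTG (an E-box) in 1 and 5, against 16.3%. These motifs were chosen after the genes were known, several windows belong to the same gene, and the counts describe letters in these windows only.

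Differences from the earlier Arc sets are set beside those from Arc 3rd. Igfbp2 minus Arc 1st and Igfbp2 minus Arc 2nd share the Igfbp2 arrays with the main comparison, so the values are given side by side and are no independent support. Against Arc 1st 14 of the 18 higher and 6 of the 14 lower genes were also called, and against Arc 2nd 13 and 9. For Slc38a5 the differences from Arc 3rd, Arc 1st and Arc 2nd were 4.44, 4.39 and 4.47, for Slc9b2 2.43, 2.83 and 2.46, for Stxbp6 1.63, 1.80 and 1.65 and for Fezf2 1.53, 1.67 and 1.18. Pla2g7 was not called against Arc 1st (2.90, adjusted p 0.41) or Arc 2nd (2.42, adjusted p 0.97). Ctxn2 (1.35, adjusted p 0.64) and Ramp3 (2.52, adjusted p 0.34) were not called against Arc 2nd. Pantr1 gave -5.22, -4.21 and -5.08, and Lamp5 -4.26, -2.49 and -3.74. By contrast Ptprm gave -1.62, -0.43 and -0.77, Gpat2 -1.38, -0.08 and -0.53, and Plpp4 -1.27, -0.26 and -0.22. Arc 3rd itself was above the mean of the earlier Arc sets in each of these (Ptprm 1.02, adjusted p 0.016; Gpat2 1.07, adjusted p 0.020; Plpp4 1.03, adjusted p 0.043). Arc 3rd minus the mean of Arc 1st and Arc 2nd called 48 genes (0.305%), 38 higher and 10 lower, and leaving out 1 of the 9 arrays at a time gave 10 (without Arc 3rd replicate 2) to 41. Whether that difference came with the batch or with the cells sorted on each occasion cannot be told apart. Igfbp2 minus the mean of all 3 Arc sets called 55 genes (0.35%), 37 higher and 18 lower, and 36 without Igfbp2 replicate 2.

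**Figure D4:**
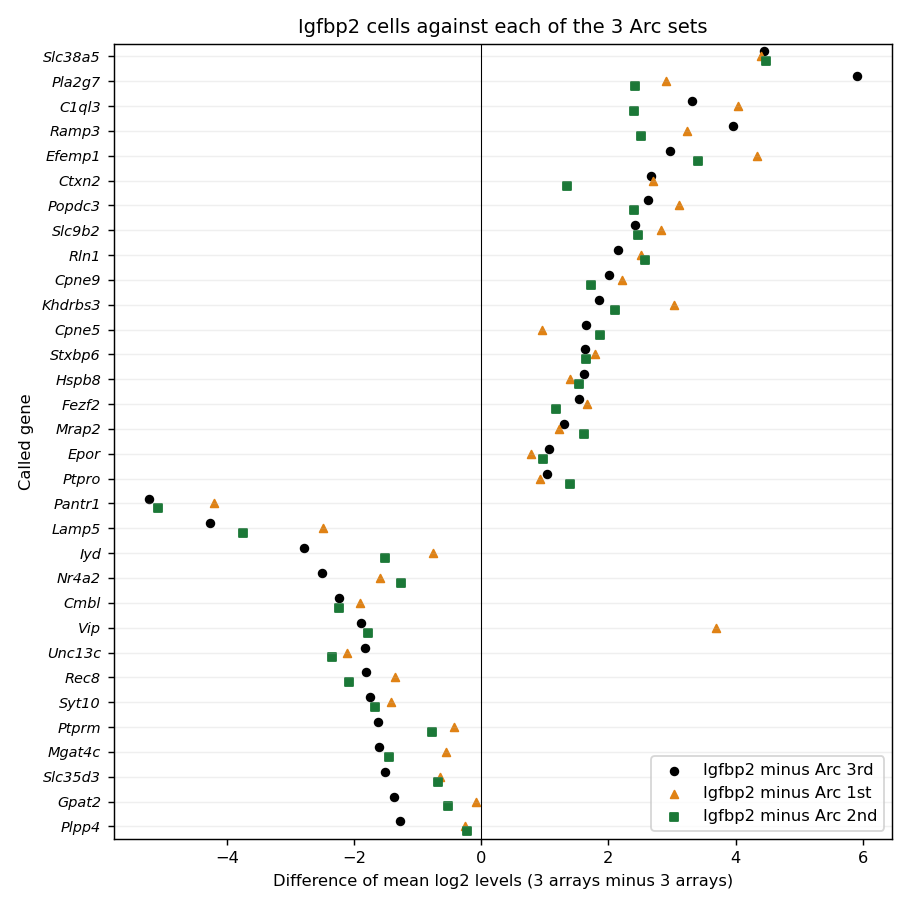
Differences of mean log2 levels (horizontal) for the 32 called genes: Igfbp2 minus Arc 3rd (circles), minus Arc 1st (triangles) and minus Arc 2nd (squares). All higher genes are right of 0 against each Arc set, Vip lies on opposite sides of 0 for Arc 1st (3.70) and Arc 3rd (-1.89), and Gpat2 and Plpp4 lie closer to 0 against Arc 1st (-0.08 and -0.26) and Arc 2nd (-0.53 and -0.22) than against Arc 3rd (-1.38 and -1.27).

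Set against another GFP-sorted amacrine line of batch 3, Igfbp2 minus Rgs5 called 138 genes (0.877%), 76 higher and 62 lower. Igfbp2 minus Crh called 1862 (11.8%), 1305 higher and 557 lower, a comparison in which the Crh arrays stood apart from each other (r 0.697 to 0.852) and which gave 3598 calls without Crh replicate 1, 574 without Crh replicate 2 and 1048 without Crh replicate 3. Gnat1 read 197, 2362 and 1277 units on the 3 Crh arrays, against 49.2, 3.06 and 4.06 units on the Igfbp2 arrays, so these values stand beside that count, and their part in it was not tested.

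Across the 26 sets, 7 of the 14 lower genes had their highest mean in Arc 3rd, a set that was highest for 159 of the 15736 probe sets tested. The 14 were chosen for values in Arc 3rd above those in Igfbp2 cells, so this count too is a description only. The genes whose mean log2 level over the 26 sets was most like that of Igfbp2 were Stc1 (r 0.855), Uts2r (0.838), Ucma (0.832), Slc51a (0.827) and Gdf2 (0.824), all highest in Arc 1st. The sets share arrays of 200 cells and 1 normalization, and the values are a description.

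**Figure D5:**
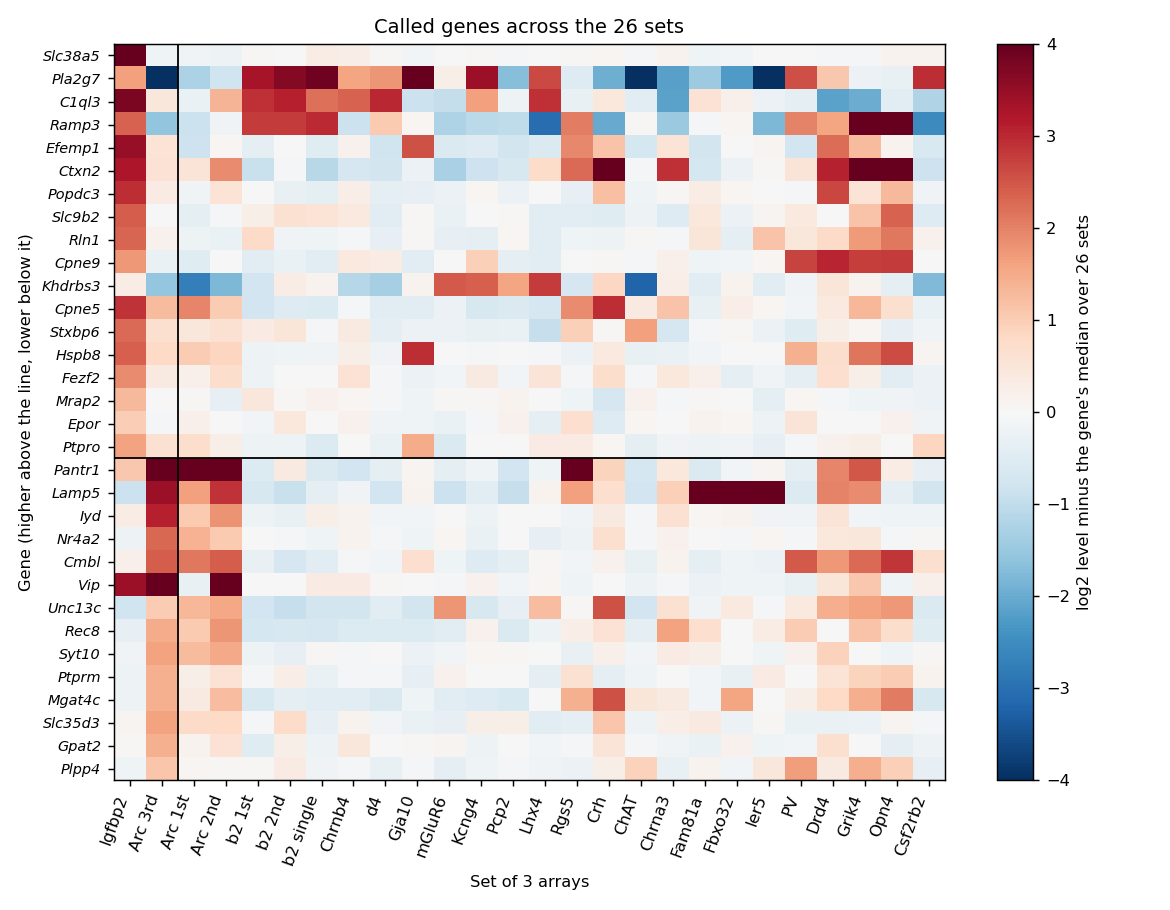
Level of the 32 called genes in each of the 26 sets, as log2 level minus the gene's median over the sets (colour scale cut at 4 either way), with Igfbp2 and Arc 3rd in the first columns, left of the line, and the earlier Arc sets next to them. Slc38a5 is coloured in the Igfbp2 column only, Pantr1 in the Arc and Rgs5 columns most, and Vip in the Igfbp2, Arc 3rd and Arc 2nd columns.

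For the other gene lists, the counts stand beside 0.114% of all probe sets tested called higher and 0.089% called lower, shares at which a list of this size would mostly hold no call. The insulin-like growth factor system had 0 of 20 called, a median of 0.03, and Igfbp7 as its lowest at -1.28 (adjusted p 1). GABA-A receptor subunits had 0 of 13 called, with Gabrb1, a beta subunit, at 12.3, 17.2 and 18.2 units in Igfbp2 cells, against 38.3, 31.6 and 44.3 units in Arc 3rd cells (-1.26, adjusted p 0.40), and Gabrd, a delta subunit of extrasynaptic receptors, at 0.82. Monoamine and acetylcholine receptors had 0 of 38 called, with the muscarinic receptor Chrm2 at 38.0, 41.2 and 61.0 units in Igfbp2 cells, against 8.40, 12.2 and 11.9 units in Arc 3rd cells (2.09, SE 0.83, adjusted p 1). Chrm2 was called in the fit on the 6 compared arrays alone (adjusted p 0.026) and with array weights (adjusted p 0.017). Sodium, calcium and HCN channels had 0 of 30 called, although Trpc4, a cation channel kept in that list, read 80.0, 65.2 and 75.5 units in Igfbp2 cells, against 17.3, 11.2 and 21.5 units in Arc 3rd cells (2.19, SE 0.56, adjusted p 0.091). Trpc4 was called on the 6 arrays alone (adjusted p 0.026), with array weights (adjusted p 0.00035) and as log2 of the value plus 8 (adjusted p 0.032). Both Chrm2 and Trpc4 were above all 9 Arc arrays.

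Recognition and synaptic organizer genes had C1ql3 as the 1 call of 65, and Cbln4, a secreted relative of C1ql3, was lowest at -1.16 (adjusted p 0.67). Cadherins and protocadherins had 0 of 26 called, with Cdh13 highest at 1.01 (adjusted p 0.14) and Pcdh17 lowest at -0.88. Axon guidance genes had 0 of 56 called, with the netrin receptor Unc5d at 1.33. Glutamate receptors had 0 of 30 called and Grm2, a metabotropic receptor, at 0.90. Potassium channels had 0 of 62 called and a median of -0.01. Glycinergic and AII amacrine markers had 0 of 14 called with Car2, a carbonic anhydrase, lowest at -1.22, and dopaminergic markers 0 of 6 called, 1 of 6 differences above 0 and a median of -0.32, with Gch1, which makes the cofactor of dopamine synthesis, lowest at -1.08 and Th, the enzyme that makes dopa, at -0.68. Oxidative phosphorylation had 0 of 72 called, with 51 of 72 differences above 0, a median of 0.07 and Cox8a highest at 0.52.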

How the data were processed

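RNA of sorted retinal cells was read on Affymetrix Mouse Gene 1.0 ST arrays, 78 in 26 sets of 3. The deposited values are intensities per probe set on a linear scale; per the submitters' processing notes, the tools were RMA, oligo and R 2.11.1 with mm9 as the build, and no settings are given. All columns share the same sorted values. The run plan assumed log2 values, so log2 was taken here. The arrays' number limits the precision.

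Of 22347 probe sets, 19446 carry 1 gene symbol, 735 several and 2166 are not listed in the platform annotation. Of those with 1 symbol, 19368 were matched to RefSeq by Entrez identifier and took the RefSeq symbol, changed or not. Testing required a mean above 9.01, the median of all values, in 1 or more of the 26 sets; 15736 were tested and 3710 were dim. Identifier-ordered runs of lowest values reach 3.99 on the worst array, which was taken as the floor; a difference is a bound ("at least") from values raised to it where this moves the fit by over 1.5 times and the higher group lies above it.

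limma 3.58.1 (R 4.3.3) fitted 1 mean per set over all 78 arrays with moderated statistics and a trended prior variance, so the SE of a gene draws on all sets. A call is a Benjamini-Hochberg adjusted p below 0.05 over all tested probe sets and a difference of at least 1. The fit was tested on simulated data. Named genes are Igfbp2, Slc38a5, Cartpt and Arc, the 12 largest called differences in each direction (floor values, arrays not overlapping), called list members or the extremes of a list, the 5 genes most like Igfbp2, and driver neighbours; others are said to be chosen after their values were seen, as were Npy, Tac1, Slc32a1, Gad1, Slc6a9, Calcrl, Th and Gnat1. The comparison, gene lists and markers were chosen with earlier results of these data known. Alternatives were another filter, normalization, floor, fewer arrays and replicate blocks. Residuals of same-numbered arrays of the sets correlated at -0.0325, 0.0321 and 0.0194, against -0.0683 to 0.0442 for arrays of different number. These values show no broad shift shared by number and cannot exclude that the arrays were paired. Promoter letters were counted in Python 3.11.15 and figures drawn in matplotlib 3.10.9.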

Additional observations from a re-analysis of the deposited data

Results flagged for a closer look

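Probe sets that the annotation leaves without a gene symbol also differed. When all bright probe sets were fitted, 1712 that were not listed and 634 with several symbols entered, and 4 of those not listed, with 0 of those with several symbols, were called higher in Igfbp2 cells, and none lower. The largest, probe set 10516227, read 176, 61.4 and 99.6 units in Igfbp2 cells, against 24.8, 9.75 and 13.3 units in Arc 3rd cells, a difference of 2.79 (SE 0.55, adjusted p 0.0049). Probe sets 10497862 (1.82), 10494817 (1.43) and 10395428 (1.28) had adjusted p of 0.0041, 0.0011 and 0.025. They are outside the comparison because no gene can be named for them, and their identity was not tested.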

How the results depend on the processing

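The 18 higher and 14 lower calls of Igfbp2 minus Arc 3rd kept their directions in the alternatives with the Arc 3rd arrays, and every one of the 32 was called with no filter, a filter on the 2 sets only, cyclic loess, the floor, median-centred arrays, no trend, 1 probe set per gene and all probe sets. The number of calls differed by over 1.5 times with array weights (105), with the mean of all 9 Arc arrays (55) and with 6 arrays and a replicate block (4, of which 3 were among the 32), and leaving out 1 array gave 19 to 31. Fits on the 6 arrays alone (30 calls), on batch 3 arrays (29) and on log2 of value plus 8 (37) shared 16, 26 and 25 calls with the main 32. With the replicate block over all 78 arrays the count was 32. Against the 9 Arc arrays Vip turned to 0.0083 and Gad1 to 0.48. Without 1 array Gad2 ran from -0.70 to 0.17 and Slc6a9 from -0.075 to 0.61. Igfbp2 minus the mean of the Arc sets gave 36 to 42 calls without 1 Igfbp2 array, Arc 3rd minus the earlier sets 10 to 41, and Igfbp2 minus Crh 574 to 3598. The leave-one-out fits of the last 2, and the replicate blocks of the added comparisons, were chosen after seeing the data. The cause was not tested. Of the 32 genes 1, Lamp5, was called in all 21 alternatives, since the 6-array block left 3.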
